A study of Mus musculus and Acomys cahirinus with 84 samples.

Results

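Matrix metalloproteinases (MMPs) cut the proteins of the extracellular matrix, and tissue inhibitors of metalloproteinases (TIMPs) block them. The genes described here were 10 members of both families, chosen by symbol: *Mmp2*, *Mmp3*, *Mmp9*, *Mmp10*, *Mmp13*, *Mmp14*, *Mmp19*, *Timp1*, *Timp2* and *Timp3*. All 10 had a row among the 56980 genes of the mouse table and among the 19818 genes of the *A. cahirinus* table. Their RNA was measured by RNA-seq in primary skin fibroblasts of mice labelled C56BL6, of wild mice and of *A. cahirinus*, a spiny mouse. The 84 libraries formed 21 groups of 4, and by their library names the 4 came from different animals, the same 4 in every group of a population. Cells of each population received 0, 10 or 20 Gy of gamma rays and were collected after 24 h or 12 d. A further untreated group, labelled as passaged, was collected at 12 d, so that the 12 d samples had a pair of unirradiated references. The labels gave no genotype, age or passage number. Each time had a batch label of its own, so that batch cannot be told apart from time, and values of 24 h were not tested against those of 12 d.

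MMPs are zinc proteases made as inactive precursors. Collagenases open fibrillar collagen, gelatinases degrade denatured and basement membrane collagen, stromelysins have a broad range and activate other MMPs, and membrane-type MMPs work at the cell surface. Fibroblasts are a main source of MMPs and TIMPs in skin, and stromelysins and collagenases are known parts of what senescent fibroblasts secrete.

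In mice, *Mmp3* (stromelysin 1, chr9:7445822-7455975), *Mmp10* (stromelysin 2, chr9:7502353-7510241) and *Mmp13* (collagenase 3, chr9:7272514-7283331) lay on the + strand of chromosome 9 in GRCm39. In *A. cahirinus* all 3 lay on 1 scaffold. Promoter windows from 250 bases before the annotated start site to the 50th transcribed base were searched on both strands. *Mmp3*, *Mmp9*, *Mmp10*, *Mmp13* and *Mmp19* each held 1 match to TGANTCA, the motif of the AP-1 transcription factors, and the other 5 genes held 0. The motif was present in 7.14% of 21770 mouse protein-coding promoters of that length. *Mmp3*, *Mmp9*, *Mmp10* and *Mmp13* had the 4 highest log2 fold changes of the members at 12 d after 20 Gy in C56BL6 mice. *Mmp9*, *Mmp10* and *Mmp13* passed the expression filter of that test through their irradiated libraries, so this ranking partly follows from the filter. *Mmp9* was not called there and *Mmp19* was called lower, and a link between match and change was not tested. The 120 bases before the start site of the 5 genes with a match are given 5′ to 3′, with the match in capitals.
Mmp3, chr9:7445702-7445821, + strand: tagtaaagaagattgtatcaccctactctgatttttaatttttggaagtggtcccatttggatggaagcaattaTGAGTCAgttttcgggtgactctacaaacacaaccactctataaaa
Mmp10, chr9:7502233-7502352, + strand: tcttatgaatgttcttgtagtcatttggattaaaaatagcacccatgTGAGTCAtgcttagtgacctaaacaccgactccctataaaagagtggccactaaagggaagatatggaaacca
Mmp13, chr9:7272394-7272513, + strand: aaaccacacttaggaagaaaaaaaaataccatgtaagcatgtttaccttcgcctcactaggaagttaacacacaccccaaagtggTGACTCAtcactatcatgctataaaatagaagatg
Mmp9, chr2:164790019-164790138, + strand: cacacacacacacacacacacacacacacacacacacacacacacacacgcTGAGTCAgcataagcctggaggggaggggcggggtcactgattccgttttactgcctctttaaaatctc
Mmp19, chr10:128626653-128626772, + strand: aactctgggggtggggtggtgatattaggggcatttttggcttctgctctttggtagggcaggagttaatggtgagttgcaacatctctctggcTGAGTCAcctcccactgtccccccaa
The first base of the match lay 46 bases before the start site in *Mmp3*, 73 in *Mmp10*, 35 in *Mmp13*, 69 in *Mmp9* and 26 in *Mmp19*. It spelled TGACTCA in *Mmp13* and TGAGTCA in the other 4. The letters TATAAA, present in 13.2% of promoters, occurred before the start site in *Mmp3*, *Mmp10* and *Mmp13* and after it in *Mmp19*. The start site used for *Mmp9* lay inside the longer gene model on which its reads were counted. A match is a string of letters, and binding was not measured.

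Total counts per library were 26653561 to 39819857 in C56BL6 mice, 17419339 to 35984517 in wild mice and 25552727 to 52857478 in *A. cahirinus*. Fibroblast markers summed to at least 11120 CPM (counts scaled to the library size) in every library. Of these markers, *Dcn* and *Lum* were as low as 0.749 and 0 CPM in C56BL6 libraries and 0.225 and 0 CPM in wild libraries. In C56BL6 mice, 2 of 6 keratinocyte markers were high in replicate 1 only, *Krt14* at 130 to 420 CPM against at most 0.0747 CPM in the other animals and *Krt5* at 60.2 to 413 CPM against at most 1.19 CPM. The other 4 (*Krt1*, *Krt10*, *Epcam* and *Cdh1*) were at most 1.94 CPM in any C56BL6 library. In wild mice, the muscle gene *Des* was 135 to 439 CPM in replicate 3 at 12 d, against at most 8.65 CPM in the other animals. At 24 h it was 762 to 1416 CPM in replicate 1 and 318 to 399 CPM in replicate 3. The 4 mural and muscle markers, *Des* among them, summed to 36.6 to 2494 CPM over the wild libraries. The wild replicate 1 libraries of 24 h and 12 d did not match: 22 genes were at 5 CPM or more in every library of one time and under 3 counts in every library of the other, against 0 genes for each of the other 3 wild animals. The same count was 0 between replicate 1 of 12 d and replicate 4 of either time, and 6 to 45 between the other pairs of wild replicate numbers within a time. That the 4 wild replicates of 12 d are different animals therefore rests on the library names. Wild replicate 1 at 10 Gy and 24 h also had only 17843 genes with a count, while its group mates had 21846 to 22253.

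Levels can be compared between genes only per length, here as CPM per kilobase of the deposited gene length. On that scale *Timp1*, a secreted inhibitor, had a median of 824 in the 28 C56BL6 libraries, 1484 in the 28 wild libraries and 287 in the 28 *A. cahirinus* libraries. *Timp2*, which inhibits MMP2 and also takes part in its activation, had medians of 572, 407 and 506. *Timp3*, the inhibitor that binds to the matrix, had medians of 112 and 308 in the mouse populations. The medians of *Timp1* and *Timp2* were above those of all 7 proteases in each population. Among the proteases, *Mmp14* (membrane-type 1, which activates pro-MMP2) had medians of 115, 126 and 116.5 CPM per kb. *Mmp2* (gelatinase A) had medians of 85.1, 76.1 and 245, and *Mmp19* of 13.2, 21.1 and 8.38. The ranges of *Mmp14* and of *Mmp2* overlapped between all populations. Levels in mice and *A. cahirinus* rest on different gene models, so they are not strictly comparable. The length of *Mmp14* was 5960 bases in mice and 3769 in *A. cahirinus*. Exons of other genes overlapped 25.5% of the exon length of *Mmp2* in mice and 0% in *A. cahirinus*. *Mmp9* (gelatinase B), *Mmp10* and *Mmp13* had medians of at most 0.506 CPM per kb in any population. The median of *Mmp3* was 0.0942 in C56BL6 and 0.977 in wild mice, and 5.97 in *A. cahirinus*. In C56BL6 mice, *Mmp14* and *Mmp2* together made up 87.1 to 96% of the summed level of the 7 proteases, and in *A. cahirinus* 91.3 to 97.8%. In wild mice it was 14.2 to 94.1%, lowest in replicate 3 of 12 d.

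*Timp3* could not be read in *A. cahirinus*, where its row held 1 count in all 28 libraries together. In that table's gene models 94.6% of its exon length lay within exons of *Syn3*, the synapsin gene that hosts *Timp3*, against 21.3% in mice. *Syn3* itself was 10.8 to 45.6 CPM in *A. cahirinus* and at most 3.65 CPM in the mouse libraries. The level of *Timp3* in *A. cahirinus* is therefore unknown, and no result for it is given within that population. In the tests of response differences between *A. cahirinus* and mice, its row passed the expression filter through the mouse libraries. Counts of members there include the row, although it cannot be read.

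The first question was what radiation did within 24 h. Here and below, a gene is called when its adjusted p is under 0.05 (edgeR quasi-likelihood test, Benjamini-Hochberg adjustment over all genes tested), and errors of log2 fold changes are standard errors. At 20 Gy, 0 of 7 members tested were called in C56BL6 mice, where 0.0895% of 14526 genes were called. In wild mice 0 of 8 were called (0% of 14473 genes), and in *A. cahirinus* 0 of 9 (3.59% of 13146 genes). At an unadjusted p under 0.05, the members were 0, 0 and 0. A fit with the animal as a block called 3, 1 and 4 members, where it called 17.6%, 12.5% and 24.1% of genes. At 10 Gy no member was called in any population without the block (0.00700%, 0% and 3.73% of genes), with 1, 0 and 0 members at an unadjusted p under 0.05. With the block 3, 0 and 5 were called (11.5%, 0% and 27.6% of genes).

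*Mmp9* was 1.69, 0.1895, 0.145 and 0.0615 CPM in the untreated C56BL6 libraries of 24 h (replicates 1 to 4) and 4.15, 0.404, 0.391 and 0.398 CPM after 20 Gy. It was higher in 4 of 4 animals, and the groups overlapped because replicate 1 was high in both. The gene passed the expression filter of the test through its irradiated libraries. The log2 fold change was 1.35 ± 1.15, adjusted p = 0.782, and with the block 1.42 ± 0.28, adjusted p = 0.0036. Without replicate 1 the values were 1.58 ± 0.44, adjusted p = 0.175, and with the block 1.60 ± 0.49, adjusted p = 0.026. Replicate 1 is the animal with *Krt5* and *Krt14*, and the part of cells with these keratins in its *Mmp9* was not tested. *Mmp19*, a broad matrix protease, was 17.5, 16.6, 22.8 and 27.3 CPM in untreated *A. cahirinus* cells and 22.8, 22.9, 33.1 and 39.7 CPM after 20 Gy, higher in 4 of 4 animals (with the block 0.49 ± 0.07, adjusted p = 0.000624). In C56BL6 mice it was 38.3, 36.4, 42.03 and 43.8 CPM untreated and 35.4, 27.96, 34.7 and 38.3 CPM after 20 Gy, lower in 4 of 4 (with the block -0.24 ± 0.06, adjusted p = 0.0143). The difference between these responses was 0.72 ± 0.27, adjusted p = 0.272 without the block and 0.72 ± 0.09, adjusted p = 3.29e-05 with it.

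*Mmp2* was 505, 1104, 559.8 and 316 CPM in untreated *A. cahirinus* cells of 24 h and 612, 1565, 772 and 478 CPM after 20 Gy. It was higher in 4 of 4 animals, by less than the spread between them, and was called with the block only (0.47 ± 0.06, adjusted p = 0.000384). *Timp1* and *Timp2* were likewise higher in 4 of 4 *A. cahirinus* animals with the block, by 0.26 and 0.24 on the log2 scale. In wild mice *Mmp13* was 3.53, 0.0321, 37.4 and 0 CPM untreated and 6.48, 0.326, 65.7 and 0.0641 CPM after 20 Gy, highest in replicate 3 and next in replicate 1 (with the block 0.93 ± 0.20, adjusted p = 0.0105). It was called without replicate 1 (0.96 ± 0.23, adjusted p = 0.0134) but not without replicate 3 (1.21 ± 0.42, adjusted p = 0.146) in that fit.

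At 12 d, irradiated C56BL6 fibroblasts were first set against the untreated cells that were not passaged. They held more RNA of the stromelysins, of collagenase 3 and of 2 inhibitors, and less of *Mmp2*, *Mmp14* and *Mmp19*. At 20 Gy against 0 Gy, 8 of 10 members were called, 5 higher and 3 lower, where 26.5% of 15119 genes were called, 13% higher and 13.6% lower. With the block 9 were called, where 47.5% of genes were. The median log2 fold change was 0.80 over the members and -0.01 over all genes. *Mmp9*, *Mmp10* and *Mmp13*, at means of 0.447, 0.0689 and 0.0845 CPM untreated, passed the expression filter through their irradiated libraries. They could hardly come out lower, so the number called higher and the median partly follow from the filter. In bulk RNA, fewer cells of a type and less RNA per cell cannot be told apart. The 3 adipocyte markers summed to 14.3 to 43.9 CPM in these untreated libraries and 0.573 to 1.99 CPM after 20 Gy, and the 6 macrophage and leukocyte markers to 12.1 to 34.4 and 26.1 to 37.2 CPM. The 10 fibroblast markers summed to 29850 to 49540 CPM untreated and 11120 to 15060 CPM after 20 Gy, without overlap. The part that these shifts in markers had in the changes was not tested.

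*Mmp3* was 2.21, 0.456, 2.21 and 1.47 CPM in untreated C56BL6 libraries of 12 d and 3.6, 7.56, 5.202 and 6.71 CPM after 20 Gy. Every irradiated library was above every untreated one, and the log2 fold change was 1.90 ± 0.47, adjusted p = 0.0205. *Mmp10* was 0.1703, 0.105, 0 and 0 CPM untreated, 8 counts in all, and 0.927, 2.46, 1.78 and 0.911 CPM after 20 Gy, 234 counts in all. The groups did not overlap (4.47 ± 0.83, adjusted p = 0.00734). *Mmp13* was 0.306, 0, 0.0315 and 0 CPM untreated, 10 counts in all, and 1.31, 2.46, 0.9703 and 1.37 CPM after 20 Gy, 237 counts in all. Its irradiated libraries again lay above all untreated ones (4.18 ± 0.93, adjusted p = 0.0137). More genes had a count after 20 Gy (24466 to 25727) than untreated (20618 to 21453). *Krt5* in replicates 2 to 4 also rose, from 0.0315 to 0.0702 CPM untreated to 0.862 to 1.13 CPM after 20 Gy. Whether the rises of *Mmp10* and *Mmp13* were part of such a general gain at low levels was not tested.

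*Mmp9* was 1.29, 0.211, 0.06303 and 0.219 CPM untreated and 1.53, 1.56, 0.889 and 1.61 CPM after 20 Gy. It was higher in 4 of 4 animals, but replicate 1 was high already when untreated and the groups overlapped. It was not called (1.69 ± 0.75, adjusted p = 0.13), whereas with the block (2.09 ± 0.57, adjusted p = 0.0241) or without replicate 1 (3.06 ± 0.47, adjusted p = 0.00299) it was.

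Leaving out single animals moved the number of members called between 3 and 9 in the fit without the block, and between 7 and 9 with it. In the fit without the block, *Mmp3* was not called without replicate 3 or 4 (adjusted p = 0.0805 and 0.115), *Mmp10* without replicate 2 or 3 (adjusted p = 0.0523 and 0.0541) and *Mmp13* without replicate 2, 3 or 4 (adjusted p = 0.0767, 0.0845 and 0.0667).

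**Figure D1:**
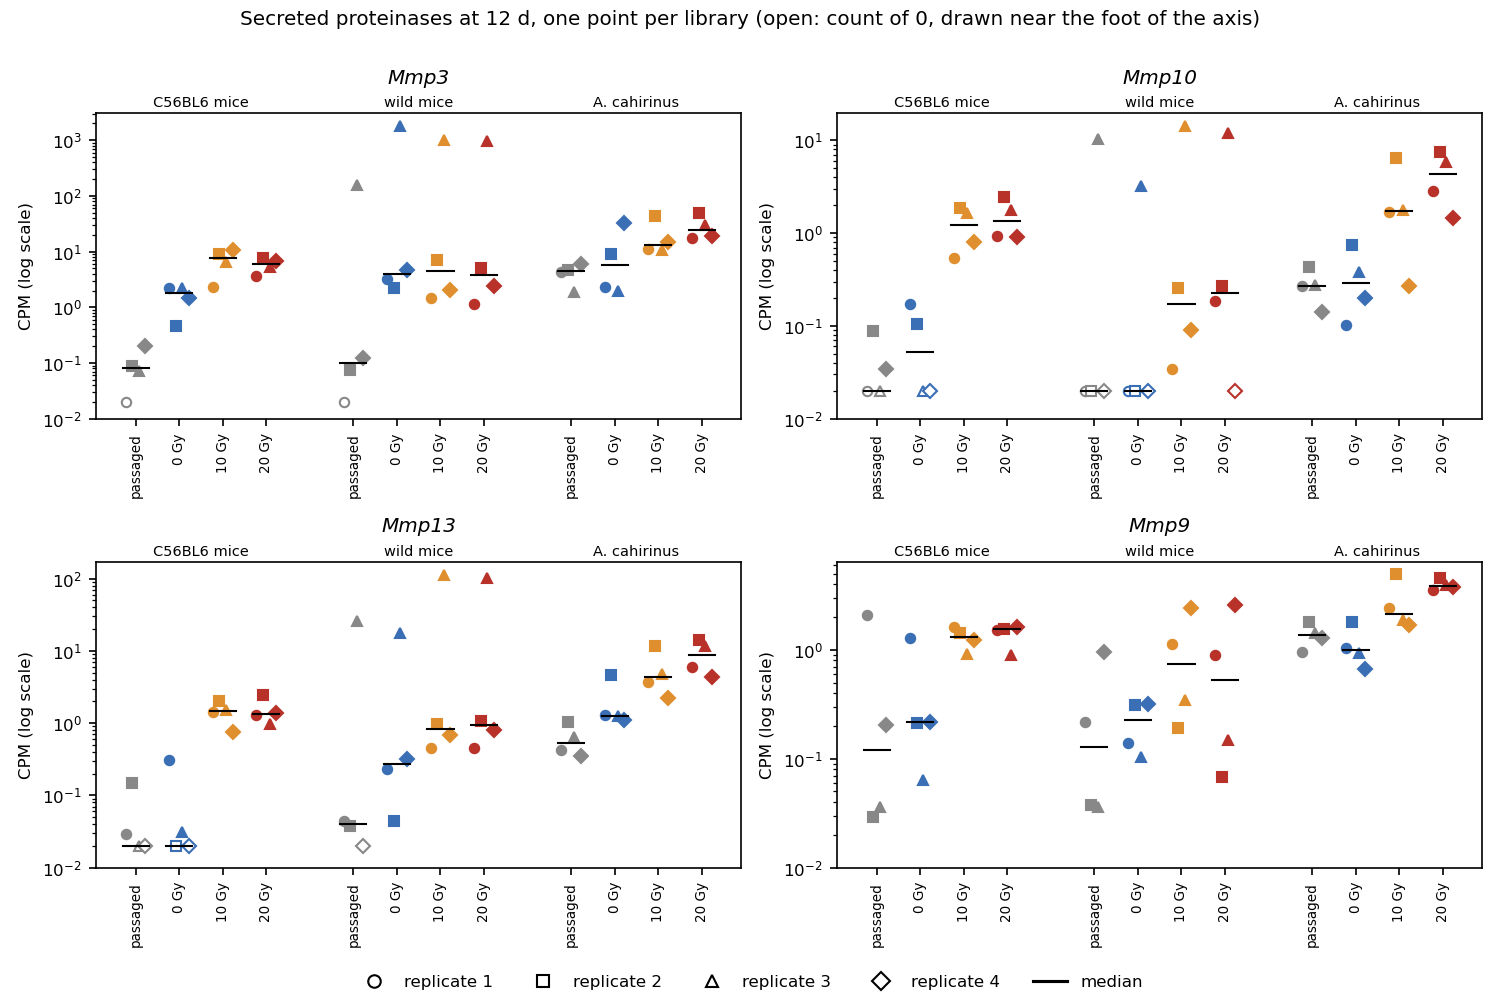
Level of *Mmp3*, *Mmp10*, *Mmp13* and *Mmp9* at 12 d in CPM on a log axis, 1 point per library. Open symbols are libraries with a count of 0, drawn near the foot of the axis at no measured level, and lines are medians. In C56BL6 mice the libraries at 20 Gy lie above all untreated ones for *Mmp3*, *Mmp10* and *Mmp13*, and wild replicate 3 reaches 1763 CPM of *Mmp3*.

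The abundant proteases moved the other way. *Mmp2* was 558, 574, 724 and 661 CPM in untreated C56BL6 libraries and 298, 273, 291 and 291 CPM after 20 Gy (-1.09 ± 0.10, adjusted p = 0.00105). *Mmp14* was 956, 841, 847 and 834 CPM untreated and 571, 511, 545 and 556 CPM after 20 Gy (-0.63 ± 0.09, adjusted p = 0.00267). *Mmp19* was 110.3, 115, 109 and 115 CPM untreated and 51.98, 61.8, 67.2 and 71.8 CPM after 20 Gy (-0.79 ± 0.10, adjusted p = 0.00195). No irradiated library reached an untreated one in any of the 3 genes. In mice 25.5% of the exon length of *Mmp2* and 28.3% of that of *Mmp19* overlapped exons of other genes, and reads from there were not assigned.

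Of the inhibitors, *Timp2* and *Timp3* rose. *Timp2* was 2712, 3349, 2888 and 2826 CPM untreated and 4269, 4306, 4175 and 4031 CPM after 20 Gy, without overlap (0.55 ± 0.13, adjusted p = 0.0198). *Timp3* was 788, 1754, 993 and 768 CPM untreated and 1267, 2799, 2317 and 2245 CPM after 20 Gy, higher in 4 of 4 animals although the groups overlapped (1.04 ± 0.33, adjusted p = 0.0499). *Timp1* was 464, 679, 835 and 757 CPM untreated and 511, 746, 960.1 and 812 CPM after 20 Gy, and was not called (0.19 ± 0.23, adjusted p = 0.586). *Timp2* was lost without replicate 2, 3 or 4 (adjusted p = 0.0727, 0.136 and 0.0904) and *Timp3* without replicate 3 or 4 (adjusted p = 0.208 and 0.197).

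At 10 Gy against 0 Gy, 6 of 10 members were called in C56BL6 mice, where 20.9% of 14894 genes were, 10.3% higher and 10.6% lower. *Mmp3*, *Mmp10* and *Mmp13* were higher and *Mmp2*, *Mmp14* and *Mmp19* lower. *Mmp9*, *Mmp10* and *Mmp13* again passed the expression filter through their irradiated libraries. With the block 10 were called, where 38.8% of genes were, and without replicate 2, 3 or 4 the call without the block fell to 2 members. Both dose comparisons share the untreated libraries. At 10 Gy *Mmp10* was 0.538, 1.88, 1.67 and 0.812 CPM (4.16 ± 0.86, adjusted p = 0.0133) and *Mmp2* 309.9, 265, 279.6 and 273 CPM (-1.11 ± 0.11, adjusted p = 0.0017). Tested directly, 20 Gy against 10 Gy called 0 of 10 members without the block and 0 with it, where 0% and 0.297% of 15463 genes were called. At an unadjusted p under 0.05 the members were 0 and 3.

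Passaged untreated C56BL6 cells had lower levels of several members than the other untreated cells of 12 d. There 4 of 7 members tested were called, all lower, where 49.6% of 14415 genes were called, 25.5% lower. *Mmp2* was 303, 335, 272 and 272 CPM in passaged cells, under all untreated libraries that were not passaged (-1.09 ± 0.12, adjusted p = 0.000441). *Mmp3* was 0, 0.0877, 0.0727 and 0.204 CPM, 11 counts in all (-4.10 ± 0.77, adjusted p = 0.00334). It was 0.456 to 2.21 CPM in the untreated libraries that were not passaged. The gene passed the expression filter through those libraries, so it could hardly come out higher in passaged cells. *Mmp19* (-1.30 ± 0.10, adjusted p = 0.000155) and *Timp2* (-0.60 ± 0.16, adjusted p = 0.0138) were lower too, the second not without replicate 3 or 4 (adjusted p = 0.0824 and 0.07). *Mmp14* was not called (-0.16 ± 0.12, adjusted p = 0.326).

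Against passaged cells, 20 Gy called 7 of 10 members in C56BL6 mice, 6 higher and 1 lower, where 41.6% of 15208 genes were called, 20.4% higher and 21.2% lower. *Mmp3* (5.98 ± 0.60, adjusted p = 0.000206), *Mmp10* (5.44 ± 0.74, adjusted p = 0.000795) and *Mmp13* (4.93 ± 0.74, adjusted p = 0.00132) were higher. *Mmp10* and *Mmp13* had 4 and 6 counts in the passaged libraries together, so the sizes of these changes rest on few reads. *Mmp3*, *Mmp9*, *Mmp10* and *Mmp13* passed the expression filter here through the irradiated libraries, so they could hardly come out lower. *Timp2* (1.13 ± 0.14, adjusted p = 0.000552) and *Timp3* (1.80 ± 0.40, adjusted p = 0.00737) were higher and *Mmp14* was lower (-0.50 ± 0.11, adjusted p = 0.00874). *Mmp2* did not differ by more than its error (-0.02 ± 0.08, adjusted p = 0.842), and *Mmp19* was higher (0.48 ± 0.13, adjusted p = 0.0161), the opposite sign to its change against the other untreated cells. So *Mmp3*, *Mmp10*, *Mmp13*, *Timp2* and *Timp3* were higher, and *Mmp14* lower, against either reference. *Mmp14* was lost without replicate 2, 3 or 4 (adjusted p = 0.0626, 0.0658 and 0.0532), *Mmp19* was lost without replicate 2, 3 or 4 (adjusted p = 0.089, 0.0524 and 0.0638) and *Timp3* was lost without replicate 2 (adjusted p = 0.0533).

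**Figure D2:**
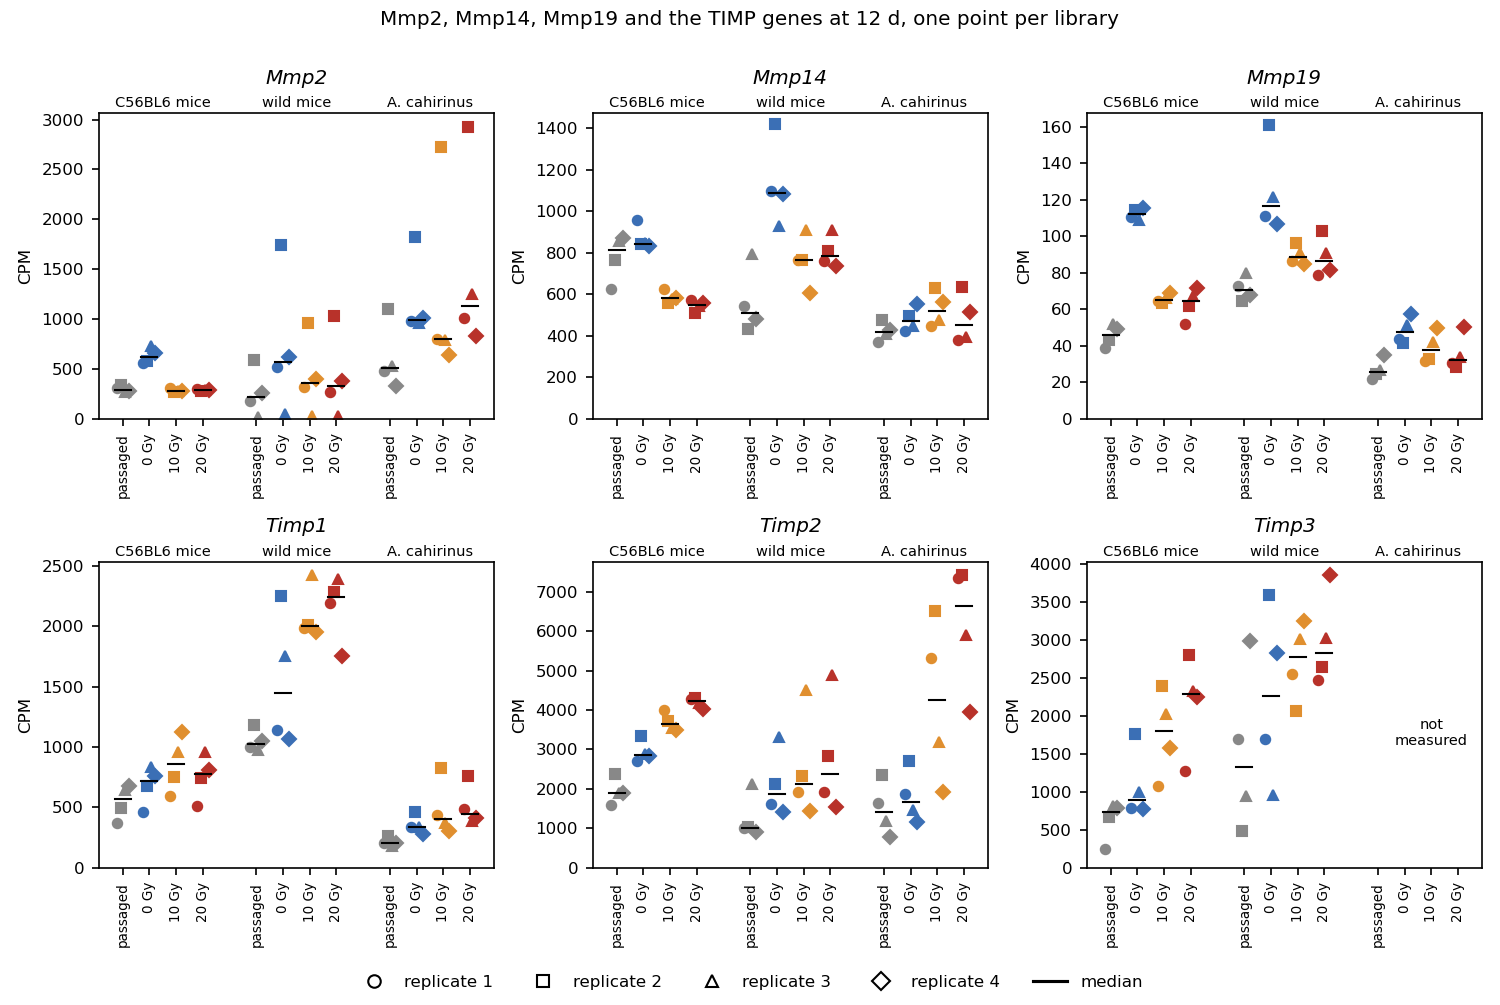
Level of *Mmp2*, *Mmp14*, *Mmp19*, *Timp1*, *Timp2* and *Timp3* at 12 d in CPM, 1 point per library. *Timp2* of *A. cahirinus* reaches 3945 to 7435 CPM at 20 Gy, above the 1149 to 2717 CPM of its untreated libraries.

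In *A. cahirinus*, 4 of 9 members tested were called at 12 d after 20 Gy against 0 Gy, all higher, where 31.8% of 13462 genes were called, 13.8% higher. With the block 7 were called, where 49.2% of genes were. The median log2 fold change was 1.34 over the members tested and 0.00 over all genes. *Mmp10*, at a mean of 0.355 CPM untreated, passed the expression filter through its irradiated libraries and could hardly come out lower. More genes had a count after 20 Gy (15856 to 16209) than untreated (14921 to 15222). *Mmp10* was 0.101, 0.741, 0.378 and 0.201 CPM untreated and 2.82, 7.57, 5.84 and 1.45 CPM after 20 Gy, without overlap (3.61 ± 0.69, adjusted p = 0.00563). *Mmp13* was 1.28, 4.71, 1.24 and 1.09 CPM untreated and 5.94, 14.2, 11.9 and 4.39 CPM after 20 Gy, higher in 4 of 4 animals (2.13 ± 0.58, adjusted p = 0.0239). Replicate 2 was the highest in both genes and both groups.

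*Mmp9* was 1.05, 1.81, 0.927 and 0.662 CPM in untreated *A. cahirinus* cells and 3.504, 4.56, 3.94 and 3.799 CPM after 20 Gy, without overlap (1.83 ± 0.30, adjusted p = 0.00288). The macrophage and leukocyte markers, of which 5 of 6 were in the table, summed to 2.43 to 4.03 CPM untreated and 3.64 to 11.2 CPM after 20 Gy, and their part in the rise was not tested. *Mmp3* was 2.296, 9.07, 1.99 and 32.3 CPM untreated and 17.6, 49.9, 29.6 and 19.1 CPM after 20 Gy. It was higher in 3 of 4 animals and lower in replicate 4, and was called with the block (2.08 ± 0.72, adjusted p = 0.0485) or without replicate 4 (2.85 ± 0.69, adjusted p = 0.0373) but not otherwise (1.34 ± 0.84, adjusted p = 0.253). *Mmp10* was lost without replicate 3 (adjusted p = 0.0606) and *Mmp13* without replicate 1, 3 or 4 (adjusted p = 0.11, 0.159 and 0.0584).

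*Timp2* was 1871, 2717, 1469 and 1149 CPM in untreated *A. cahirinus* cells and 7353, 7435, 5911 and 3945 CPM after 20 Gy. Every irradiated library was above every untreated one (1.78 ± 0.30, adjusted p = 0.00359). *Timp1* was 334, 458, 338 and 279 CPM untreated and 482, 756, 384 and 414 CPM after 20 Gy, higher in 4 of 4 animals and called with the block only (0.51 ± 0.10, adjusted p = 0.00686). *Mmp2* was 976, 1826, 962 and 1008 CPM untreated and 1014, 2923, 1253 and 829.7 CPM after 20 Gy, with replicate 2 highest in both (0.33 ± 0.40, adjusted p = 0.561). *Mmp14* was 424, 496, 446 and 554 CPM untreated and 379.9, 634, 393 and 514 CPM after 20 Gy (0.00 ± 0.17, adjusted p = 0.995). Neither was called in either fit. *Mmp19* was lower in 4 of 4 animals and called with the block only (-0.46 ± 0.09, adjusted p = 0.00527).

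At 10 Gy against 0 Gy, 0 of 9 members were called in *A. cahirinus*, where 2.87% of 13215 genes were called, and 3 had an unadjusted p under 0.05. With the block 5 were called, where 27.5% of genes were: *Mmp9*, *Mmp10*, *Mmp13* and *Timp2* higher and *Mmp19* lower. *Timp2* was 5309, 6505, 3193 and 1914 CPM at 10 Gy, under its 20 Gy level in 4 of 4 animals. Tested directly, 20 Gy against 10 Gy called 0 of 9 members without the block (0.457% of 13564 genes, 0 members at an unadjusted p under 0.05). With the block it called 5, all higher at 20 Gy, where 17.9% of genes were called, 8.26% higher. Among them were *Timp2* (0.66 ± 0.15, adjusted p = 0.0204), *Mmp13* (0.80 ± 0.17, adjusted p = 0.0176) and *Mmp10* (1.10 ± 0.31, adjusted p = 0.0385). Leaving out replicate 1, 3 or 4 ended all 5 calls, with 0.0592, 0.0832 and 0.0992 as the adjusted p of *Timp2*, and without replicate 2 the fit called 6.

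Against passaged *A. cahirinus* cells, 20 Gy called 6 of 9 members, all higher, where 42.5% of 13338 genes were called, 19.5% higher. *Mmp10* was 0.269, 0.434, 0.273 and 0.1398 CPM in passaged cells (3.97 ± 0.59, adjusted p = 0.00128) and *Mmp13* 0.422, 1.05, 0.649 and 0.3496 CPM (3.88 ± 0.49, adjusted p = 0.000646). There too *Mmp10* passed the expression filter through the irradiated libraries. *Mmp3* (2.79 ± 0.43, adjusted p = 0.00149), *Mmp9* (1.53 ± 0.21, adjusted p = 0.00102), *Timp1* (1.27 ± 0.22, adjusted p = 0.0024) and *Timp2* (2.06 ± 0.35, adjusted p = 0.00232) were the others. *Mmp2*, at 477, 1101, 529 and 325 CPM in passaged cells, was called with the block (1.28 ± 0.10, adjusted p = 8.04e-05) and not without it (1.32 ± 0.48, adjusted p = 0.0531). Passaged against other untreated *A. cahirinus* cells called 2 of 8 members, where 25.8% of 12992 genes were called (13.6% lower), and 6 with the block, where 49.5% were (26.3% lower). The members called were all lower in passaged cells. The first 2 were *Mmp19* (-0.86 ± 0.16, adjusted p = 0.00758) and *Timp1* (-0.75 ± 0.17, adjusted p = 0.0154), and in that fit no member was called without replicate 1 or without replicate 3. With the block, leaving out single animals left 5 to 6 members called.

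**Figure D3:**
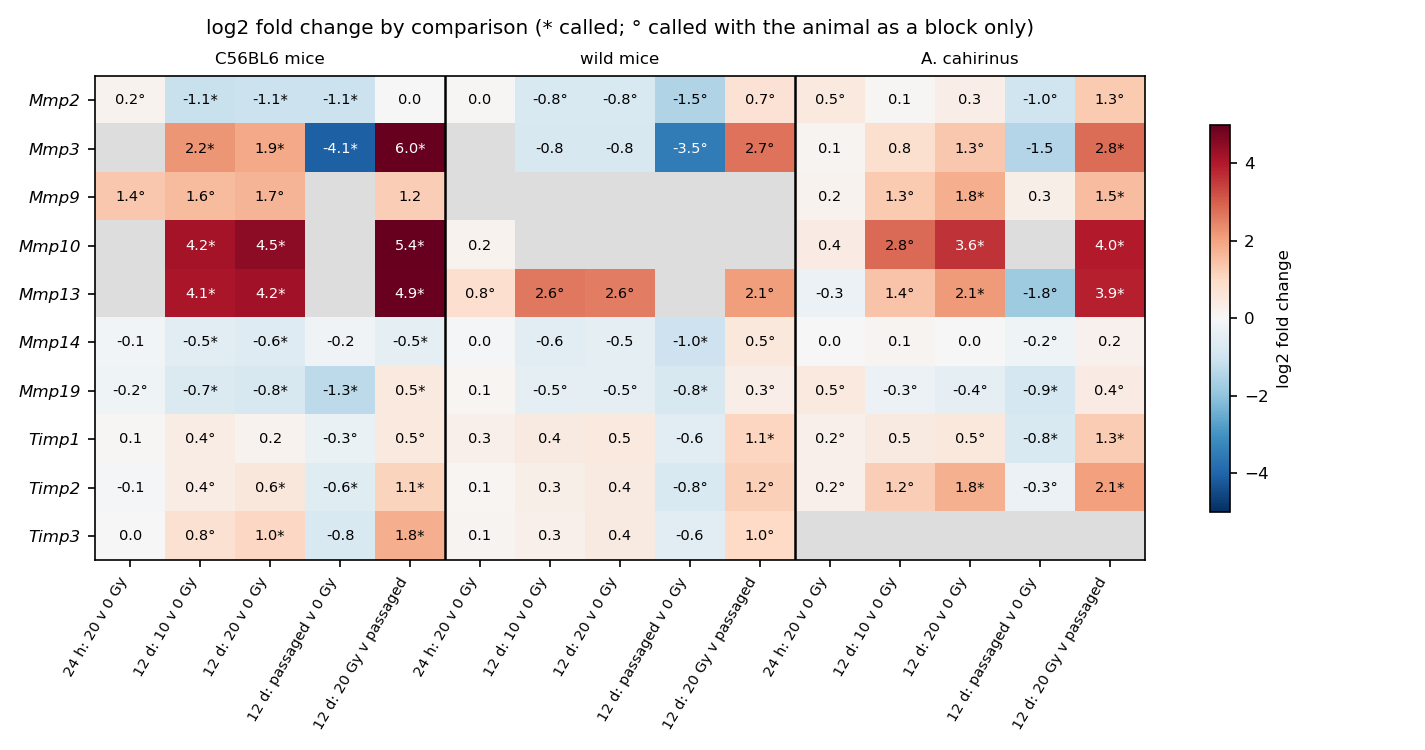
Log2 fold change of each gene (rows) in 5 comparisons per population (columns), with colours ending at 5 in either direction and grey for genes that did not pass the expression filter. An asterisk marks calls and a degree sign calls made with the animal as a block only. *Mmp10* and *Mmp13* are called at 20 Gy against untreated cells of 12 d in C56BL6 mice (4.47 and 4.18) and in *A. cahirinus* (3.61 and 2.13).

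In wild mice, 0 of 8 members tested were called at 12 d after 20 Gy against 0 Gy, where 0.0694% of 14399 genes were called, and 2 had an unadjusted p under 0.05. With the block 3 were called, where 15.4% of genes were. Here and below, wild animals of 12 d are counted by library name, and the gene count given above did not tell replicates 1 and 4 apart. *Mmp3* was 3.23, 2.23, 1763 and 4.72 CPM untreated and 1.16, 5.05, 983 and 2.401 CPM after 20 Gy. Replicate 3 held nearly all of it in both groups, and 3 of 4 animals were lower after irradiation (-0.81 ± 2.57, adjusted p = 0.935, and -0.22 ± 0.56, adjusted p = 0.889 without replicate 3). *Mmp13* was 0.2303, 0.0445, 17.8 and 0.314 CPM untreated and 0.4496, 1.08, 104 and 0.791 CPM after 20 Gy, higher in 4 of 4 animals. *Mmp13* passed the expression filter through the irradiated libraries. It could hardly come out lower in the replicates other than replicate 3, which had room to fall from 17.8 CPM. The gene was called with the block (2.34 ± 0.34, adjusted p = 0.00958) but not when replicate 3 was left out of that fit (1.93 ± 0.63, adjusted p = 0.0893).

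*Mmp2* was 515, 1737, 43.3 and 621 CPM in untreated wild libraries and 264, 1034, 28.2 and 381 CPM after 20 Gy, lowest in replicate 3 and lower after irradiation in 4 of 4 animals (with the block -0.73 ± 0.12, adjusted p = 0.0124, and -0.78 ± 0.13, adjusted p = 0.0176 without replicate 3). *Mmp19* was 111, 161, 122 and 107 CPM untreated and 78.5, 103, 90.7 and 81.8 CPM after 20 Gy, without overlap (with the block -0.46 ± 0.09, adjusted p = 0.0194, and -0.49 ± 0.10, adjusted p = 0.0293 without replicate 3). *Mmp14* was 1097, 1423, 927 and 1082 CPM untreated and 758, 807, 909 and 738 CPM after 20 Gy, also without overlap, and was called in neither fit (-0.46 ± 0.17, adjusted p = 0.111 with the block). *Timp1* was 1137, 2255, 1759 and 1065 CPM untreated and 2197, 2290, 2395 and 1759 CPM after 20 Gy, and *Timp2* 1614, 2110, 3322 and 1422 CPM and 1914, 2844, 4900 and 1539 CPM. Both were higher in 4 of 4 animals, and neither was called in either fit.

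*Mmp10* did not pass the filter in wild mice at 12 d, with 0, 0, 3.25 and 0 CPM untreated and 0.187, 0.269, 12.1 and 0 CPM after 20 Gy. At 24 h it was 6.92, 0, 18.98 and 0 CPM in untreated wild cells. The animals rich in *Des* at each time, replicate 3 at both and replicate 1 at 24 h, were those with the most *Mmp10*. At 24 h *Mmp2* was lowest in the same animals, at 24.01, 555, 14.3 and 214 CPM. The part of cells that carry *Des* in these levels was not tested, and *Des* was 244 to 1557 CPM in the *A. cahirinus* libraries. At 10 Gy against 0 Gy at 12 d, 0 of 8 members were called, where 0.264% of genes were (2 members at an unadjusted p under 0.05), and 3 with the block, where 12.7% were.

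Against passaged wild cells, 20 Gy called 1 of 8 members, where 10.5% of 14384 genes were called, and 8 with the block, all higher, where 38% of genes were called, 19.7% higher. *Mmp3* and *Mmp13* passed the expression filter here through the irradiated libraries. *Timp1* was 999.8, 1183, 976 and 1050 CPM in passaged cells, under every library at 20 Gy (1.06 ± 0.15, adjusted p = 0.00815), and was not called without replicate 1 or 4 (adjusted p = 0.0938 and 0.068). Without replicate 3, 5 members were called, among them *Mmp3* (5.27 ± 0.89, adjusted p = 0.0156) and *Mmp13* (4.75 ± 0.77, adjusted p = 0.0139). Passaged against other untreated wild cells called 2 of 7 members, where 10.7% of 13978 genes were called (5.20% lower), and 5 with the block, where 31.9% were (16.8% lower). The members called were all lower in passaged cells. The first 2 were *Mmp14* (-1.02 ± 0.23, adjusted p = 0.0319) and *Mmp19* (-0.82 ± 0.15, adjusted p = 0.0213). In this comparison *Mmp3* passed the expression filter through the untreated libraries that were not passaged. In the fit without the block, no member was called without replicate 1 or without replicate 4, and 4 were without replicate 3. With the block, leaving out single replicates left 3 to 5 members called.

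The next question was whether the populations differed in their response to 20 Gy, tested as the difference between log2 fold changes. Each response was taken against the untreated cells that were not passaged. At 12 d, *A. cahirinus* and C56BL6 mice differed in 3 members, where 18.8% of 14100 genes were called. *Mmp2*, which fell in C56BL6 mice (-1.09) and was not called in *A. cahirinus* (0.33), differed by 1.43 ± 0.47, adjusted p = 0.0467. *Mmp14* (-0.63 and 0.00) differed by 0.64 ± 0.21, adjusted p = 0.0475. *Timp2*, which rose in both (0.55 and 1.78), differed by 1.23 ± 0.35, adjusted p = 0.0257. With the block 4 were called, where 38% of genes were: *Mmp2* (1.30 ± 0.20, adjusted p = 0.000949), *Mmp14* (0.61 ± 0.13, adjusted p = 0.00549), *Timp2* (1.26 ± 0.16, adjusted p = 0.000305) and *Mmp19* (0.34 ± 0.12, adjusted p = 0.0475). Without the block, the difference in *Mmp2* was lost without replicate 1, 3 or 4 (adjusted p from 0.0912 to 0.228), that in *Mmp14* without any 1 replicate number (adjusted p from 0.0766 to 0.159) and that in *Timp2* without replicate 1 or 3 (adjusted p = 0.0941 and 0.18). The fall of *Mmp2* in C56BL6 mice depends on the reference, with means of 296 CPM in passaged cells and 288 CPM after 20 Gy. In *A. cahirinus* these means were 608 and 1505 CPM. Response differences against passaged cells were not tested.

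For the stromelysins, collagenase 3 and gelatinase B the differences had wide errors. *Mmp10* differed by -0.85 ± 1.10, adjusted p = 0.638, *Mmp13* by -2.06 ± 1.10, adjusted p = 0.209, *Mmp3* by -0.54 ± 1.03, adjusted p = 0.769 and *Mmp9* by 0.14 ± 0.86, adjusted p = 0.943. These errors leave room for differences in either direction, so the values do not show that the populations respond alike. *A. cahirinus* against wild mice called 0 members at 12 d, where 3.31% of 13888 genes were called (1 member at an unadjusted p under 0.05). With the block *Mmp2* (0.96 ± 0.21, adjusted p = 0.00952) and *Timp2* (1.46 ± 0.20, adjusted p = 0.00121) were called, where 23.4% of genes were. Wild against C56BL6 mice called 0 members without the block and 0 with it, where 0% and 0.101% of 15914 genes were called (0 and 3 members at an unadjusted p under 0.05).

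At 24 h the response to 20 Gy differed in 0 members between *A. cahirinus* and C56BL6 mice (2.09% of genes, 1 member at an unadjusted p under 0.05), 0 between *A. cahirinus* and wild mice (0%, 0 members) and 0 between wild and C56BL6 mice (0%, 0 members). With the block the counts were 4, 1 and 0, where 16.8%, 7.25% and 0.647% of genes were called. Untreated wild and C56BL6 cells differed in 0 of 6 members at 24 h and 0 of 7 at 12 d, where 5.70% and 2.93% of genes were called, with 3 members at an unadjusted p under 0.05 each time. *Timp1* was nonetheless higher in every untreated wild library than in any untreated C56BL6 library of the same time. At 24 h it was 869, 1454, 946 and 935 CPM against 419, 639, 784 and 714 CPM (0.72 ± 0.24, adjusted p = 0.123), and at 12 d the log2 fold change was 1.17 ± 0.30, adjusted p = 0.0973.

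The summed level of the TIMP genes over that of the 7 MMP genes, both in CPM per kb, describes the balance of their RNA in a library. In C56BL6 mice at 12 d the ratio was 3.66 to 5.35 untreated (median 4.58), 4.14 to 5.6 in passaged cells and 9.03 to 12.1 after 20 Gy (median 11.4). In wild mice it was 2.48 to 5.14 untreated, 6.25 to 10.1 in passaged cells and 5.56 to 14.3 after 20 Gy. Without replicate 3, the lowest untreated and irradiated library, the ranges of wild mice were 4.4 to 5.14 untreated, 6.25 to 10.1 in passaged cells and 7.65 to 14.3 after 20 Gy. In *A. cahirinus*, where the sum lacks *Timp3*, it was 1.3 to 2.12 untreated, 1.91 to 2.72 in passaged cells and 2.65 to 6 after 20 Gy. The ratios after 20 Gy lay above those of the untreated cells that were not passaged in all 3 populations, and overlapped those of passaged cells in wild mice and *A. cahirinus*. At 24 h the ranges of 0 and 20 Gy overlapped in every population. In C56BL6 mice the MMP sum was 366 ± 18.9 CPM per kb untreated, 232 ± 17.1 in passaged cells and 200 ± 6.06 after 20 Gy (mean ± SD, n = 4). The TIMP sum was 1658 ± 239.6, 1191 ± 229 and 2194 ± 261 in the same order. In *A. cahirinus* the MMP sum was 514 ± 134, 308 ± 113 and 622 ± 329, and the TIMP sum 902 ± 273, 657 ± 223 and 2303 ± 598. The ratio is a description of RNA, with no test.

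**Figure D4:**
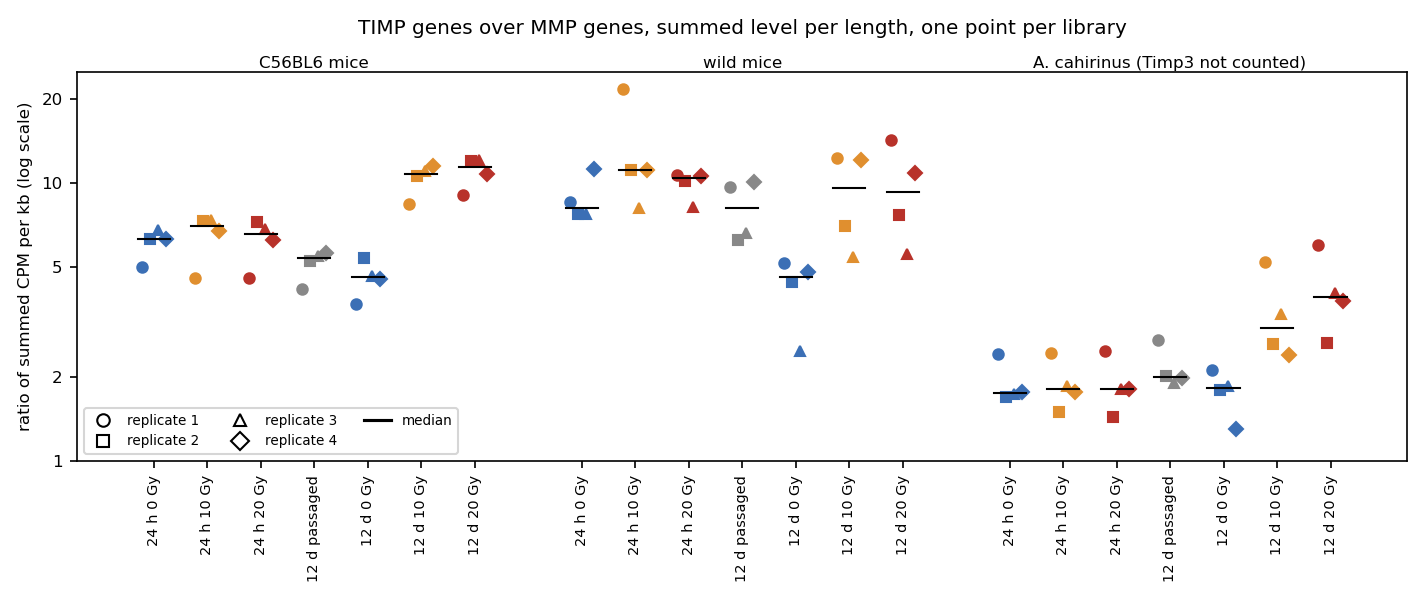
Ratio of the summed TIMP level to the summed MMP level (CPM per kb, log axis) by time and treatment, 1 point per library. At 12 d the ratios after 20 Gy lie above those of untreated cells that were not passaged, with medians of 11.4 against 4.58 in C56BL6 mice. The sum for *A. cahirinus* lacks *Timp3*.

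Of 17 other MMP and TIMP genes, 9 passed the filter in C56BL6 mice at 12 d, and 4 were called higher and 1 lower at 20 Gy against 0 Gy. *Mmp15* (1.26 ± 0.36, adjusted p = 0.034), *Mmp24* (2.11 ± 0.43, adjusted p = 0.0101), *Mmp25* (1.45 ± 0.43, adjusted p = 0.0398) and *Mmp28* (0.76 ± 0.18, adjusted p = 0.0181) rose and *Mmp23* fell (-1.73 ± 0.43, adjusted p = 0.0211). *Mmp24* and *Mmp25* were at most 0.531 and 1.04 CPM in any C56BL6 library, so the sizes of their changes rest on few reads. In *A. cahirinus*, 4 of 10 were called higher and 1 lower. *Mmp12*, the macrophage elastase, rose to a mean of 1.79 CPM (3.82 ± 0.80, adjusted p = 0.0083). *Mmp16* (4.19 ± 0.75, adjusted p = 0.00451) and *Mmp24* (3.08 ± 0.65, adjusted p = 0.0087), both membrane-type, and the inhibitor *Timp4* (2.0 ± 0.41, adjusted p = 0.00739) rose, and *Mmp11* fell (-0.55 ± 0.12, adjusted p = 0.00856). *Mmp16* and *Mmp24* were at most 1.04 and 1.875 CPM in any *A. cahirinus* library. Between passaged and other untreated cells only 7 genes of this list passed the filter in C56BL6 mice and 6 in *A. cahirinus*. Some genes thus entered through the irradiated libraries. In wild mice 0 of 8 were called (2 at an unadjusted p under 0.05). Of all genes tested, 26.5%, 31.8% and 0.0694% were called in C56BL6 mice, *A. cahirinus* and wild mice. With the block the counts were 8 in C56BL6 mice, 6 in *A. cahirinus* and 1 in wild mice, where 47.5%, 49.2% and 15.4% of genes were called.

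A second list held 23 genes for the activation, anchoring, clearance and induction of MMPs. In C56BL6 mice 4 of 21 tested were called higher and 4 lower. The numbers were 6 and 4 of 21 in *A. cahirinus*, and in wild mice 0 of 20 (4 at an unadjusted p under 0.05). The shares of all genes called were again 26.5% (13% higher and 13.6% lower), 31.8% and 0.0694%. With the block the counts were 11 in C56BL6 mice, 13 in *A. cahirinus* and 3 in wild mice, against the shares of all genes given above for that fit. *Plaur*, the urokinase receptor, rose in C56BL6 mice (1.38 ± 0.36, adjusted p = 0.0253) and fell in *A. cahirinus* (-1.39 ± 0.14, adjusted p = 0.000424), a difference of -2.77 ± 0.40, adjusted p = 0.000609. *Furin*, a convertase that activates membrane-type MMPs, fell in C56BL6 mice (-0.28 ± 0.07, adjusted p = 0.0242) and rose in *A. cahirinus* (0.41 ± 0.09, adjusted p = 0.00974), a difference of 0.69 ± 0.11, adjusted p = 0.000854. Both genes had opposite calls in the 2 populations.

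*Cd44*, which anchors MMPs at the surface, rose in C56BL6 mice (1.25 ± 0.39, adjusted p = 0.047), as it did in *A. cahirinus* (0.91 ± 0.26, adjusted p = 0.0293). The MMP inducer *Bsg* (-0.91 ± 0.17, adjusted p = 0.00725), *Adam12* (-2.31 ± 0.19, adjusted p = 0.000653) and *Sparc* (-0.63 ± 0.16, adjusted p = 0.0213) fell in C56BL6 mice, where the integrin gene *Itgav* rose (0.27 ± 0.07, adjusted p = 0.0296). In *A. cahirinus* the clearance receptor gene *Lrp1* (0.76 ± 0.20, adjusted p = 0.0208) and the related proteases *Adam10* (0.44 ± 0.14, adjusted p = 0.0462), *Adam15* (0.57 ± 0.12, adjusted p = 0.01) and *Adam17* (0.46 ± 0.12, adjusted p = 0.0188) rose. The protease trap *A2m* fell from a mean of 25.2 to 2.44 CPM (-3.36 ± 0.35, adjusted p = 0.00046), and *Itgb3* fell (-1.48 ± 0.21, adjusted p = 0.00148).

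Among 8991 genes, those most like a member were ranked by the median over the populations of the Pearson correlation of log2 CPM across 28 libraries, after subtracting each animal's mean at each time. Correlations are given for C56BL6 mice, wild mice and *A. cahirinus* in turn. *Lamp1*, a lysosomal membrane protein gene, came first for *Timp2* (0.95, 0.76 and 0.97). *Atp6v1e1* (0.93, 0.93 and 0.90) and *Atp6v1d* (0.91, 0.92 and 0.88), subunits of the vacuolar proton pump, came first for *Timp1*. For *Mmp2* it was *Bace1* (0.94, 0.95 and 0.74), for *Mmp3* *Dpp7* (0.93, 0.92 and 0.24), for *Mmp14* *Dipk1a* (0.90, 0.91 and 0.37) and for *Mmp19* *2510009E07Rik* (0.95, 0.94 and 0.60). The *Mmp3* and *Mmp14* values were low in *A. cahirinus*. The libraries share animals, batches and treatments, so these values are descriptions with no p. *Mmp9*, *Mmp10*, *Mmp13* and *Timp3* were under the mean of 1 CPM set for this ranking in at least 1 population.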

How the data were processed

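RNA was measured in 84 libraries of polyA RNA from primary skin fibroblasts, 4 per group. The deposited values were raw counts per gene, made by the authors with featureCounts 2.0.3, for mice on GRCm39 with Ensembl release 108, per the file headers. No strand or overlap option stands in the commands there, so counts were made without strand although the labels name a stranded kit, and reads in overlapping genes were not assigned. HISAT2 and Trim Galore are named in the submitters' processing notes. The deposited gene lengths, other values of the authors' tables in bases, served only for levels per kilobase. Replicate pairs differed beyond sampling noise (chi-square per degree of freedom 7.95 to 573 in 126 pairs). A count of 3 corresponds to 0.057 to 0.172 CPM, a floor that covers counting error only.

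Each comparison was fitted on its own groups with edgeR 4.0.16 in R 4.3.3 (filterByExpr, TMM, quasi-likelihood test, Benjamini-Hochberg adjustment over all genes tested, threshold 0.05). CPM was TMM-scaled over all libraries of a table, and log2 CPM used a prior count of 2. Response differences with *A. cahirinus* used 18109 shared symbols scaled within each table. Same-numbered libraries carry the same animal code and deviated together (mean r 0.58 to 0.93, lowest pair 0.41, other numbers -0.30 to -0.11), so a second fit had the animal as a block. The 24 h and 12 d libraries were never paired. Alternatives were RLE size factors, no expression filter, DESeq2 1.42.0, the block, and leaving out each replicate. The members and lists were chosen with earlier results of these data known. All 10 members are reported, other genes of the 2 lists where called in the comparison described, and the most similar genes by rank. A gene counted in the second list is not reported here by name. Promoters were read from GRCm39 at GENCODE canonical start sites.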

Additional observations from a re-analysis of the deposited data

Results flagged for a closer look

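Among 191 sets of 4 libraries (1 gene in 1 group), 22 held a library whose gap to its nearest neighbour took up most of the range. Chance gives about 1 in 20 for independent values with a normal spread. CPM values need not have that spread and the same animals recur across genes and groups, so the 22 cannot be read against that rate.

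Wild replicate 3 at 12 d was the highest library for *Mmp3* in passaged (157 CPM, others at most 0.120) and untreated cells (1763, others at most 4.72). It was also highest for *Mmp10* in passaged (10.5) and untreated cells (3.25), where the other 3 libraries had 0 CPM. For *Mmp13* it was highest in passaged cells (25.7), at 10 Gy (112) and at 20 Gy (103.5), for *Timp1* at 10 Gy (2426) and for *Timp2* in passaged cells (2110). At 24 h, wild replicate 1 was the lowest for *Mmp19* at 10 Gy (17.8) and 20 Gy (32.2), and wild replicate 2 the highest for *Timp1* untreated (1454).

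In C56BL6 mice replicate 1 was the highest for *Mmp9* at 20 Gy and 24 h (4.15 CPM, others at most 0.404) and for *Mmp14* untreated at 12 d (956), and the lowest for *Timp1* at 20 Gy and 24 h (421.5) and for *Timp3* in passaged cells (238). Replicate 3 was the lowest for *Mmp9* at 20 Gy and 12 d (0.889), and replicate 2 for *Mmp19* at 10 Gy and 24 h (27.7). In *A. cahirinus* replicate 2 was the highest at 12 d for *Mmp2* untreated (1826) and at 10 Gy (2727) and for *Mmp13* untreated (4.71), and replicate 1 the lowest for *Mmp14* untreated at 24 h (357.9).

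The response to 20 Gy at 12 d differed between *A. cahirinus* and C56BL6 mice, by a test of the difference of log2 fold changes, in *Mmp2* (1.43), *Mmp14* (0.64) and *Timp2* (1.23). These responses were taken against the untreated cells that were not passaged.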

How the results depend on the processing

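The fit with the animal as a replicate block moved the count of members called by more than 1.5 times in 17 of 30 comparisons, each time upward, and ended no call. In C56BL6 mice it went from 0 to 3 at 20 Gy and 3 at 10 Gy (24 h) and from 6 to 10 at 10 Gy (12 d). In wild mice it went from 0 to 1 at 20 Gy (24 h), from 0 to 3 at 20 Gy and 3 at 10 Gy (12 d), from 2 to 5 for passaged and from 1 to 8 for 20 Gy against passaged cells. In *A. cahirinus* it went from 0 to 4 and 5 at 20 and 10 Gy (24 h), from 4 to 7 and 0 to 5 at 20 and 10 Gy (12 d), from 0 to 5 between doses and from 2 to 6 for passaged cells. The response differences went from 0 to 4 (*A. cahirinus* and C56BL6, 24 h), 1 (*A. cahirinus* and wild, 24 h) and 2 (the same, 12 d). DESeq2 gave 3 for wild 20 Gy against passaged cells, 2 for *A. cahirinus* at 10 Gy (12 d), 4 for *A. cahirinus* passaged cells, and 2 and 1 for untreated wild against C56BL6 cells at 24 h and 12 d, against 1, 0, 2, 0 and 0. Without the expression filter wild passaged cells gave 1. RLE size factors left all 32 counts within 1.5 times. Leaving out 1 replicate number moved counts over these ranges, with the block in parentheses. C56BL6: 12 d 10 Gy against 0 Gy 2 to 7 (6 to 9), 12 d 20 Gy against 0 Gy 3 to 9 (7 to 9), 12 d 20 Gy against passaged 4 to 9 (8 to 9), 24 h 10 Gy against 0 Gy 0 to 0 (0 to 5), 24 h 20 Gy against 0 Gy 0 to 0 (1 to 4), 24 h 20 Gy against 10 Gy 0 to 0 (0 to 1). Wild: 12 d 10 Gy against 0 Gy 0 to 0 (1 to 5), 12 d 20 Gy against 0 Gy 0 to 0 (1 to 5), 12 d 20 Gy against passaged 0 to 5 (6 to 9), 12 d passaged against 0 Gy 0 to 4 (3 to 5), 24 h 10 Gy against 0 Gy 0 to 0 (0 to 1), 24 h 20 Gy against 0 Gy 0 to 0 (1 to 2). *A. cahirinus*: 12 d 10 Gy against 0 Gy 0 to 2 (4 to 6), 12 d 20 Gy against 0 Gy 2 to 5 (6 to 7), 12 d 20 Gy against 10 Gy 0 to 2 (0 to 6), 12 d passaged against 0 Gy 0 to 4 (5 to 6), 24 h 10 Gy against 0 Gy 0 to 1 (4 to 5), 24 h 20 Gy against 0 Gy 0 to 1 (2 to 4). Between populations: *A. cahirinus* against C56BL6 12 d response 0 to 2 (3 to 4), *A. cahirinus* against C56BL6 24 h response 0 to 0 (1 to 4), *A. cahirinus* against wild 12 d response 0 to 0 (1 to 3), *A. cahirinus* against wild 24 h response 0 to 0 (0 to 1), wild against C56BL6 24 h untreated 0 to 1. *Mmp2* reversed sign once among called values: in *A. cahirinus* at 10 Gy and 12 d it was 0.07 ± 0.50 and became -0.41 ± 0.10 (adjusted p = 0.0171) with the block and without replicate 2. The cause of these shifts was not tested. Few reads limit *Mmp9*, *Mmp10* and *Mmp13* in mice, where a count of 3 is 0.075 to 0.172 CPM.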

Other observations

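*Mmp25*, which encodes a membrane-type MMP known from leukocytes, separated both mouse populations. It was 2.60 to 16.1 CPM over the 28 wild libraries and 0.0630 to 1.04 CPM over the 28 C56BL6 libraries, without overlap. Between untreated cells the log2 fold change was 3.92 ± 0.53 at 24 h (adjusted p = 0.0047, edgeR) and 5.43 ± 0.69 at 12 d (adjusted p = 0.00482). The macrophage and leukocyte markers summed to 15.9 to 48.9 CPM in untreated wild and 10.6 to 27.3 CPM in untreated C56BL6 libraries of 24 h. At 12 d the sums were 15.7 to 45.2 and 12.1 to 34.4 CPM. *Csf1r*, *Cd68* and *Lyz2* carried them, with medians of 21.9, 2.86 and 4.32 CPM in wild and 11.25, 2.74 and 2.59 CPM in C56BL6 mice. *Ptprc*, *Adgre1* and *Itgam* had medians of 0.0172, 0 and 0 CPM in wild and 0.0462, 0 and 0.0284 CPM in C56BL6 mice. The part of such cells in the difference was not tested. *Mmp8*, the neutrophil collagenase, had medians of 0.105 CPM in wild and 0.0314 CPM in C56BL6 mice, with highest libraries of 12.6 and 0.441 CPM. Both genes were named after their values were seen.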
